A study of Mus musculus with 18 samples.

Results

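The genes that make, remove and sense retinoic acid were examined in intestinal dendritic cells (DCs), the immune cells that carry antigen from the gut wall to the draining lymph nodes. They were 10 of the 54232 genes in the count table, found by matching Ensembl identifiers to the symbols Aldh1a1, Aldh1a2, Aldh1a3, Rdh10, Dhrs9, Dhrs3, Rara, Rarg, Rxra and Crabp2. The measurement was RNA-seq of 18 libraries of sorted mouse DCs, all from C57BL/6J animals whose genotype label is CD11a KO. Itgal encodes CD11a, which pairs with CD18 to form the leukocyte integrin LFA-1. No wild-type library was analysed here, so every value below belongs to knockout cells and no effect of the knockout can be read from them. The cells were CD11b+ DCs, CD103+ DCs or DCs positive for both markers (double-positive, DP), each taken from the small intestinal lamina propria (LP) or from the intestinal lymph node (LN). This gave 6 groups of 3 libraries. The labels give no age or sex and do not tie libraries to single animals, so p-values measure the spread between these libraries, which may be in part technical. The protocol describes the DC gate (live, single, CD45+, CD64-, MHCII high, CD11c+) for LP cells after removal of Peyer's patches, and it does not describe how the LN cells were isolated.

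Retinoic acid is made from vitamin A in a pair of steps. Retinol dehydrogenases (Rdh10, and Dhrs9, which also acts on steroids) oxidise retinol to retinaldehyde, Dhrs3 reduces retinaldehyde back to retinol, and the retinaldehyde dehydrogenases of the Aldh1a family turn retinaldehyde into retinoic acid in a step that is not reversed. The acid is carried to the nucleus by Crabp2 and binds the retinoic acid receptors (RARs), which act on DNA paired with a retinoid X receptor (RXR). Intestinal DCs, above all those with CD103, are known for Aldh1a2 activity, and the retinoic acid they release gives T and B cells the homing receptors for the gut and favours regulatory T cells.

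The libraries held between 23574292 and 46901985 counted reads. Values are CPM, read counts scaled to a common library size by TMM. A change was called at an adjusted p under 0.01 and a fold change over 2 in edgeR's quasi-likelihood fit of all 17074 genes that passed a filter on low counts. Of the 10 genes, 9 passed and Crabp2 did not. Itgal was read in every library (6.45 to 26.6 CPM), and a count per gene does not show whether the transcript is of the altered allele. The 5 DC markers (Flt3, Zbtb46, Itgax, H2-Ab1, Cd74) had a mean of 10 CPM or more in all 6 groups, but their level differed between tissues: they summed to 63610 to 77682 CPM in the LP and 18951 to 46266 CPM in the LN, with 3 of 5 called lower in the LN in CD103+ DCs and 2 lower and 1 higher in DP DCs. Groups of the same label also differed in the markers of the main DC lineages. The 5 cDC1 markers (Xcr1, Clec9a, Irf8, Batf3, Cadm1) summed to 6759 to 7261 CPM in LP and 1982 to 2047 CPM in LN CD103+ DCs (4 of 5 called lower), and to 231 to 264 CPM in LP and 921 to 1102 CPM in LN DP DCs (4 of 5 called higher). In CD11b+ DCs 3 of 5 were called higher in the LN (292 to 300 CPM in the LP, 558 to 618 CPM in the LN). The 5 cDC2 markers (Sirpa, Irf4, Itgam, Clec10a, Cd209a) summed to 2522 to 3007 CPM in LP and 196 to 239 CPM in LN DP DCs (4 of 5 called lower), and to 2195 to 3288 CPM in LP and 746 to 1171 CPM in LN CD11b+ DCs (3 of 5 called lower). In CD103+ DCs they summed to at most 51 CPM in both tissues (2 of 5 higher, 2 lower). The part of these lineage differences in the tissue changes below was not tested. Itgam (CD11b) fitted the labels, with at most 1.26 CPM in any library labelled CD103+ and at least 4.85 CPM in the others, but its level differed between tissues. It was 13.2-fold lower in LN than in LP DP DCs (5.16 against 68.5 CPM, edgeR adjusted p = 1e-08). In CD11b+ DCs it was 2.94-fold lower in the LN (20.8 against 61.3 CPM, edgeR adjusted p = 0.0002). Within the LN, DP DCs held 4.02-fold less Itgam than CD11b+ DCs (edgeR adjusted p = 1.9e-05). Itgae (CD103) followed the labels within each tissue but not between them. It held 92.1 to 293 CPM in LP CD11b+ DCs, 1238 to 1440 CPM in LP CD103+ and 714 to 896 CPM in LP DP DCs, against 5.57 to 6.65 CPM in LN CD11b+ and 27.0 to 49.1 CPM in LN CD103+ and DP DCs. LP CD11b+ DCs thus held more Itgae than either LN group labelled with CD103. The 6 T cell markers summed to 3.64 to 21.6 CPM in LP libraries and 195 to 434 CPM in LN libraries, and all 6 were called higher in the LN in each subset. All 9 LP libraries held the Y-linked Ddx3y (50.04 to 74.4 CPM) and almost no Xist (at most 0.286 CPM). All LN libraries held Xist (15.4 to 89.1 CPM), and 2 of them also held Ddx3y. These were CD11b+ replicate 3 (58.0 CPM) and DP replicate 3 (52.2 CPM), against at most 0.351 CPM in the other LN libraries. Sex and tissue therefore cannot be told apart in CD103+ DCs. They cannot be separated in CD11b+ and DP DCs either, since every LN library held Xist and no LP library held more than 0.286 CPM of it. Without the 2 LN libraries that held Ddx3y the 9 genes called below numbered 4 in CD11b+, 8 in CD103+ and 7 in DP for the tissue comparison, as with them. Since leaving them out removes the only LN libraries with Ddx3y, these counts say nothing of sex.

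Aldh1a2 (GRCm38, chromosome 9, 71215789 to 71296243, plus strand), the retinaldehyde dehydrogenase of intestinal DCs, was by far the most abundant of its family and was called higher in the LN than in the LP in CD103+ and DP DCs and not in CD11b+ DCs. In the LP, CD11b+ libraries held 96.9, 106 and 101 CPM, CD103+ libraries 256, 198 and 274 CPM and DP libraries 190, 167 and 178 CPM. In the LN, CD11b+ libraries held 65.7, 120 and 131 CPM, CD103+ libraries 2375, 2319 and 1955 CPM and DP libraries 847, 813 and 1044 CPM. The LN CD103+ libraries were thus the highest of all, LN DP libraries came next, and neither overlapped another group, whereas the range of LN CD11b+ enclosed that of LP CD11b+.

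**Figure D1:**
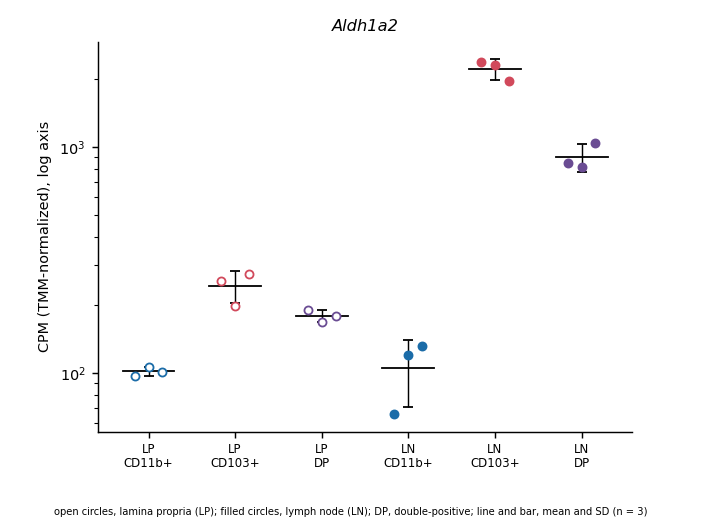
Aldh1a2 in each of the 18 libraries, in CPM on a log axis, with open circles for the lamina propria (LP), filled circles for the lymph node (LN), and a line and bar for the mean and SD of 3 libraries. The LN CD103+ libraries lie between 1955 and 2375 CPM and the LN DP libraries between 813 and 1044 CPM, above all LP libraries, while the LN CD11b+ libraries lie between 65.7 and 131 CPM.

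The mean of Aldh1a2 rose 9.15-fold in CD103+ DCs from 242 ± 39.7 CPM in the LP to 2216 ± 228 CPM in the LN (SD, n = 3; log2 fold change 3.19, SE 0.20, edgeR adjusted p = 4e-10). In DP DCs it rose 5.05-fold, from 178 ± 11.3 to 901 ± 125 CPM (log2 fold change 2.34, SE 0.20, edgeR adjusted p = 1.8e-08). In CD11b+ DCs the means were 101 ± 4.68 and 105 ± 34.9 CPM (log2 fold change 0.06, SE 0.19, edgeR adjusted p = 0.84). The tissue effect itself differed between subsets (F test of the interaction, edgeR adjusted p = 2.3e-07), being larger than in CD11b+ DCs by 3.14 on the log2 scale in CD103+ and by 2.28 in DP DCs. Within the LN, CD103+ DCs held 21.0 times the CPM of CD11b+ DCs (log2 fold change 4.39, edgeR adjusted p = 3.4e-11) and DP DCs 8.55 times (log2 fold change 3.10, edgeR adjusted p = 3.3e-09), and DP DCs held less than CD103+ DCs (log2 fold change -1.30, edgeR adjusted p = 7e-05). The order was the same but shallower in the LP, where CD103+ exceeded CD11b+ DCs 2.39-fold (log2 fold change 1.26, edgeR adjusted p = 4.6e-05) and DP lay between them. The DP excess over CD11b+ DCs in the LP (log2 fold change 0.82, edgeR adjusted p = 0.0071) was under the fold limit, and DP and CD103+ DCs differed there by -0.44 on the log2 scale (edgeR adjusted p = 0.082).

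Markers of mature DCs rose in the LN in all 3 subsets, also in CD11b+ DCs, where no change of Aldh1a2 was called. The 7 markers (Ccr7, Fscn1, Cd40, Cd80, Cd86, Ccl22, Relb) summed to 562 to 1760 CPM over the LP libraries, 3183 to 4654 CPM in LN CD11b+, 24973 to 26007 CPM in LN CD103+ and 19315 to 21257 CPM in LN DP, and 5 of the 7 were called higher in the LN in each subset (1 was called lower in CD103+ and 1 in DP DCs). Of the 6 stromal markers 5 were tested, and 0 were called higher in the LN in any subset. The 6 markers (Col1a1, Col1a2, Col3a1, Pdgfra, Pdpn, Dcn) summed to 1.39 to 19.1 CPM in LP and 0.373 to 3.11 CPM in LN libraries, where Dcn averaged up to 1.70 CPM and the other 5 at most 0.326 CPM in a group. The part of maturation, of T cells or of stromal cells in the Aldh1a2 values was not tested, and in bulk RNA a larger number of cells with a transcript and more of it per cell cannot be told apart.

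Per length of their exons, the other members of the family added little. Aldh1a2 made up 98.9% of the summed Aldh1a CPM per kb in LP CD11b+ DCs and between 99.8% and 99.96% in the other groups, and the sum ran from 45.3 CPM per kb in LP CD11b+ to 979 CPM per kb in LN CD103+ DCs. Aldh1a1, a paralogue with the same reaction, was read in the LP at 1.36, 1.10 and 1.23 CPM in CD11b+, 0.637, 0.817 and 0.0408 CPM in CD103+ and 0.410, 0.915 and 0.750 CPM in DP libraries. In the LN it had 5 reads over the 3 CD11b+ libraries, 1 over the CD103+ libraries and 0 over the DP libraries, where 0 allows up to 0.0398 CPM (3 reads over the group). It fell in all 3 subsets (edgeR adjusted p = 0.0016 in CD11b+, 0.0024 in CD103+ and 0.00043 in DP), by 4.43 on the log2 scale in CD11b+ DCs. The size of the fall was at least 17.6-fold in DP DCs (59 reads against 0) and 40.6-fold in CD103+ DCs, with an exact 95% counting interval of 6.99 to 1629 (57 reads against 1). In CD103+ DCs 1 LP library reached down into the LN range, and the call was lost without LP CD103+ replicate 2 (edgeR adjusted p = 0.011), LN CD103+ replicate 2 (0.012) or LN CD103+ replicate 3 (0.012), and in a fit of the compared libraries only (0.012). Such intervals and limits cover counting error only.

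Aldh1a3, the third paralogue, was at or under 2.76 CPM everywhere and passed the test in no comparison. The LN CD103+ libraries held 0.913, 2.57 and 2.76 CPM against 0.248, 0.559 and 0.367 CPM in LP CD103+, with no overlap (log2 fold change 2.37, SE 0.75, edgeR adjusted p = 0.011). The LN DP libraries held 0.742, 1.01 and 0.618 CPM against 0.0373, 0 and 0.535 CPM in LP DP (log2 fold change 2.04, SE 0.81, edgeR adjusted p = 0.039). In CD11b+ DCs the order was the other way, with 1.11, 1.57 and 0.916 CPM in the LP and 0.457, 0.584 and 0.266 CPM in the LN (log2 fold change -1.45, edgeR adjusted p = 0.13). LP DP replicate 3 was the highest of its group. Without it the DP rise (log2 fold change 5.17, edgeR adjusted p = 0.00015), the CD103+ rise (2.37, 0.0008) and the difference of the tissue effect between subsets (0.00011, against 0.012 with all libraries) were called. The CD103+ rise was also called without LP DP replicate 1 (edgeR adjusted p = 0.0085), LP DP replicate 2 (0.0034) or LN CD103+ replicate 1 (0.007), in a fit of the compared libraries only (0.0037) and in DESeq2 (0.0021). Likewise the excess of LN CD103+ over LN CD11b+ DCs (log2 fold change 2.24, edgeR adjusted p = 0.017) was called without LP DP replicate 2 (0.0058) or 3 (0.0015). This excess was also called in a fit of the compared libraries only (0.0052) and in DESeq2 (0.0043). The subset difference was called without LP DP replicate 2 (0.0053) or LN CD103+ replicate 1 (0.009), and in DESeq2 (0.001). Within the LP, DP DCs lay below CD11b+ DCs (log2 fold change -2.63, edgeR adjusted p = 0.038) and below CD103+ DCs (-1.05, 0.37), and without LP DP replicate 3 both differences were called (-5.76, 0.00059 and -4.18, 0.0026). The difference from CD11b+ DCs was also called in DESeq2 (-2.66, 0.0065).

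To set the letters of these genes beside their values, the promoters in RefSeq's table for GRCm38.p6 were searched for the sites that RAR and RXR bind, a pair of AGGTCA-like hexamers in the same direction. The hexamers allowed were AGGTCA itself and the forms that read AGTTCA, or else GGGTCA, or lastly GGTTCA, on either strand, 5 bases apart (DR5, the classical retinoic acid response element), 2 apart (DR2) or 1 apart (DR1). Over the 32851 promoters in the table, from 250 bases before the start to 50 after it, 0.0974% held a DR5, 0.268% a DR2 and 0.222% a DR1. Of the 10 genes 7 had an entry and 0 of them held any of the 3 arrangements, and of 47 other retinoid genes with an entry Rarb and Cyp26a1 held a DR5 and Bco1 a DR1. Such a match is a description of letters, and its absence from this window says nothing of sites elsewhere. The 250 bases before the start of Aldh1a2 (chr9:71215539-71215788, plus strand) are shown as the promoter of the gene with the largest range, with GC content of 77.6% and 40 CpG dinucleotides against medians of 52.4% and 6 over all promoters. Those of Rarb (chr14:16575477-16575726, minus strand) and Cyp26a1 (chr19:37697558-37697807, plus strand) are shown for the DR5, which is in capitals and begins 53 bases before the start in Rarb and 32 bases before it, on the opposite strand, in Cyp26a1.
Aldh1a2: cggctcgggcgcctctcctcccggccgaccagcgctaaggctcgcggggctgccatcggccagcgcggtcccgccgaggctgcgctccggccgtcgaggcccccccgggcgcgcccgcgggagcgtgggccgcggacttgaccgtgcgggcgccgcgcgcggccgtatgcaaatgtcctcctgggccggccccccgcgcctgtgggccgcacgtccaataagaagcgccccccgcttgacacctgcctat
Rarb: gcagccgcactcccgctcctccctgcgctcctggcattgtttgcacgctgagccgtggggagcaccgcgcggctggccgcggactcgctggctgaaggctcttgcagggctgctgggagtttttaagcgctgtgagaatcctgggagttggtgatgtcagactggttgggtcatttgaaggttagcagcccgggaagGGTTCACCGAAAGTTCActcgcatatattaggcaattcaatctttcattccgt
Cyp26a1: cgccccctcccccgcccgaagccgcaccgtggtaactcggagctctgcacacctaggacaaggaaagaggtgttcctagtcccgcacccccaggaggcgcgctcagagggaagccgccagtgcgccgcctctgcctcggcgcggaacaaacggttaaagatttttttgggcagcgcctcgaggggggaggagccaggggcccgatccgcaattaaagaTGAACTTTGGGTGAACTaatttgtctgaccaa
Levels of Rarb and Cyp26a1 are given with the receptors and the clearance enzymes.

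Of the enzymes before the Aldh1a step, Rdh10 and Dhrs9 were lower in the LN in all 3 subsets, which was opposite to Aldh1a2 in CD103+ and DP DCs. Rdh10 (chromosome 1, 16105774 to 16133734, plus strand), a retinol dehydrogenase, held 14, 13 and 17.9 CPM in LP CD11b+, 7.71, 8.43 and 7.63 CPM in LP CD103+ and 11.7, 9.25 and 10.3 CPM in LP DP libraries. In the LN it held 6.39, 6.23 and 4.13 CPM in CD11b+, 3.73, 3.58 and 4.51 CPM in CD103+ and 4.06, 5.62 and 4.32 CPM in DP libraries. Every LP library thus lay above every LN library, and the LN subsets overlapped one another. The fall was 2.68-fold in CD11b+ (log2 fold change -1.42, SE 0.20, edgeR adjusted p = 3.1e-05), 2.01-fold in CD103+ (log2 fold change -1.01, SE 0.20, edgeR adjusted p = 0.00037) and 2.23-fold in DP DCs (log2 fold change -1.16, SE 0.20, edgeR adjusted p = 0.0001). In CD103+ DCs it lay at the fold limit, so that it was not called without LP CD103+ replicate 2 (log2 fold change -0.96), LN CD103+ replicate 1 (-0.99) or LN CD103+ replicate 2 (-0.96). With all libraries it was not called in DESeq2 (-0.98), with the size factors of DESeq2 in edgeR (-0.97) or under a stricter filter of at least 100 counts in at least 3 libraries (-0.99). The interaction test did not separate the 3 tissue effects (edgeR adjusted p = 0.46), whose differences from CD11b+ were 0.42 in CD103+ and 0.27 in DP on the log2 scale.

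Dhrs9 (chromosome 2, 69380445 to 69404533, plus strand) was most abundant in CD103+ DCs of the LP and fell furthest there. In the LP the libraries held 9.48, 6.88 and 7.45 CPM in CD11b+, 40.5, 46.8 and 39.2 CPM in CD103+ and 13.4, 15.9 and 15.0 CPM in DP DCs. In the LN they held 2.53, 1.43 and 2.06 CPM, 2.28, 2.11 and 2.98 CPM, and 2.77, 1.88 and 3.42 CPM in the same order. The LP groups did not overlap one another, and the LN groups did. The fall was 17.2-fold in CD103+ (log2 fold change -4.10, SE 0.24, edgeR adjusted p = 1.7e-10), 5.51-fold in DP (log2 fold change -2.46, SE 0.23, edgeR adjusted p = 7.2e-08) and 3.94-fold in CD11b+ DCs (log2 fold change -1.98, SE 0.23, edgeR adjusted p = 3.3e-06), and these effects differed between subsets (F test, edgeR adjusted p = 8.8e-05). Within the LP, CD103+ DCs held 5.31 times the CPM of CD11b+ DCs (edgeR adjusted p = 1.5e-07) and 2.86 times that of DP DCs (edgeR adjusted p = 2.5e-05). DP exceeded CD11b+ DCs by 0.90 on the log2 scale (edgeR adjusted p = 0.0092), under the fold limit with all libraries and over it without LP CD11b+ replicate 1 (1.05, edgeR adjusted p = 0.0094). The 6 epithelial markers (Epcam, Krt8, Krt20, Vil1, Fabp2, Cdh1) summed to 54.9 to 819 CPM in the LP and 24.4 to 64.5 CPM in the LN, and 5 of 6 were called lower in the LN in CD11b+, 2 in CD103+ and 4 in DP DCs, as Rdh10 and Dhrs9 were. In LP CD103+ DCs, the group with the most Dhrs9, they summed to 54.9 to 96.5 CPM, against 211 to 462 CPM in LP CD11b+ and 571 to 819 CPM in LP DP DCs. The part of epithelial RNA in the Rdh10 and Dhrs9 values was not tested.

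Dhrs3 (chromosome 4, 144892827 to 144928209, plus strand), which returns retinaldehyde to retinol, rose in the LN in the same subsets as Aldh1a2 but with DP DCs highest. The LP libraries held 45.2, 44.8 and 50.6 CPM in CD11b+, 16.3, 17.8 and 12.8 CPM in CD103+ and 40.7, 44.8 and 42.1 CPM in DP DCs. The LN libraries held 47.7, 57.9 and 57.7 CPM in CD11b+, 38.4, 41.5 and 38.4 CPM in CD103+ and 156, 169 and 169 CPM in DP DCs. LP CD103+ was the lowest group and LN DP the highest, neither overlapping another. The rise was 3.87-fold in DP (log2 fold change 1.95, SE 0.11, edgeR adjusted p = 9.7e-11) and 2.51-fold in CD103+ DCs (log2 fold change 1.33, SE 0.11, edgeR adjusted p = 1.2e-08), against 0.22 on the log2 scale in CD11b+ DCs (SE 0.11, edgeR adjusted p = 0.12), and the effects differed between subsets (F test, edgeR adjusted p = 2.7e-07). In the LN, DP exceeded CD103+ DCs 4.18-fold (edgeR adjusted p = 1.3e-09), the reverse of the order for Aldh1a2.

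Among the receptors, Rara was lower in CD103+ and DP DCs of the LN and Rarg was higher in the LN in all 3 subsets. Rara (chromosome 11, 98927818 to 98974942, plus strand), which encodes RAR alpha, held 57.6, 82.0 and 46.2 CPM in LP CD11b+, 60.7, 79.4 and 51.8 CPM in LP CD103+ and 56.4, 54.0 and 48.4 CPM in LP DP libraries. The LN libraries held 42.2, 43.1 and 39.7 CPM in CD11b+, 18.3, 17.1 and 16.2 CPM in CD103+ and 14.1, 16.8 and 17 CPM in DP DCs. The 3 LP groups overlapped, and all LN CD103+ and DP libraries lay below all others. Rara fell 3.72-fold in CD103+ (log2 fold change -1.90, SE 0.18, edgeR adjusted p = 6.2e-08) and 3.32-fold in DP DCs (log2 fold change -1.73, SE 0.18, edgeR adjusted p = 2.3e-07). The difference in CD11b+ DCs, -0.57 on the log2 scale, was not called (SE 0.17, edgeR adjusted p = 0.014), and the effects differed between subsets (F test, edgeR adjusted p = 0.00046).

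Rarg (chromosome 15, 102234938 to 102257517, minus strand), which encodes RAR gamma, was highest in the CD11b+ DCs of each tissue. LP CD11b+ libraries held 8.11, 12.6 and 5.34 CPM, while LP CD103+ held 0.460, 0.258 and 0.367 CPM and LP DP 0.447, 1.05 and 0.357 CPM. LN CD11b+ libraries held 36.7, 44.7 and 38.6 CPM, LN CD103+ 3.73, 3.29 and 1.93 CPM and LN DP 10.9, 8.94 and 9.22 CPM. LN CD11b+ stood above all other groups, and LN DP overlapped LP CD11b+. The rise was 4.60-fold in CD11b+ (log2 fold change 2.20, SE 0.33, edgeR adjusted p = 5.2e-05), 8.39-fold in CD103+ (log2 fold change 3.07, SE 0.41, edgeR adjusted p = 3.9e-06) and 15.5-fold in DP DCs (log2 fold change 3.95, SE 0.39, edgeR adjusted p = 1.2e-07). The 3 rises did not differ at the threshold with all libraries (F test, edgeR adjusted p = 0.022), and did so without LP CD11b+ replicate 3 (0.0073) or LP DP replicate 2 (0.0025) and in DESeq2 (0.0036). In the LN, CD11b+ exceeded CD103+ DCs 13.4-fold (edgeR adjusted p = 1.2e-07) and DP DCs 4.13-fold (edgeR adjusted p = 7.2e-05). B cell and macrophage transcripts were also highest in libraries labelled CD11b+. The 4 B cell markers (Cd79a, Cd79b, Ms4a1, Pax5) summed to 99.4 to 142 CPM in LN CD11b+, 43.4 to 51.7 CPM in LN DP, 31.9 to 35.8 CPM in LN CD103+, 35.6 to 42.7 CPM in LP CD11b+, 13.4 to 19.9 CPM in LP CD103+ and 7.49 to 8.89 CPM in LP DP, with Pax5 at or under 0.194 CPM on average in every group. Of the 3 tested, 3 were called higher in the LN in CD11b+ and in DP DCs and 2 in CD103+ DCs. The 6 macrophage markers (Fcgr1, Mertk, C1qa, C1qb, Adgre1, Csf1r) summed to 897 to 1728 CPM in LP CD11b+ and 420 to 756 CPM in LN CD11b+ DCs, and 0 of the 6 were called higher in the LN there. The part of B cells, T cells or macrophages in the Rarg values was not tested.

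Rxra (chromosome 2, 27676440 to 27762957, plus strand), which encodes RXR alpha, was lowest in CD103+ DCs of the LN. The LP libraries held 15.1, 19.6 and 16.3 CPM in CD11b+, 20.6, 22.8 and 19.4 CPM in CD103+ and 18.8, 16.4 and 21.7 CPM in DP DCs. The LN libraries held 26, 26.2 and 25.4 CPM in CD11b+, 4.44, 5.48 and 2.81 CPM in CD103+ and 12.0, 16.8 and 12.2 CPM in DP DCs. LN CD11b+ lay above and LN CD103+ below all other groups, and the LP groups overlapped. Rxra fell 4.92-fold in CD103+ DCs (log2 fold change -2.30, SE 0.20, edgeR adjusted p = 3.1e-08). In CD11b+ DCs the LN was higher by 0.61 on the log2 scale (SE 0.19, edgeR adjusted p = 0.018) and in DP DCs lower by 0.47 (log2 fold change -0.47, SE 0.19, edgeR adjusted p = 0.043), neither called, and the effects differed between subsets (F test, edgeR adjusted p = 9.4e-07). In the LN, DP lay below CD11b+ DCs by a log2 fold change of -0.92 (edgeR adjusted p = 0.00087), under the fold limit with all libraries and over it without LN DP replicate 2 (-1.10, edgeR adjusted p = 0.00052).

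**Figure D2:**
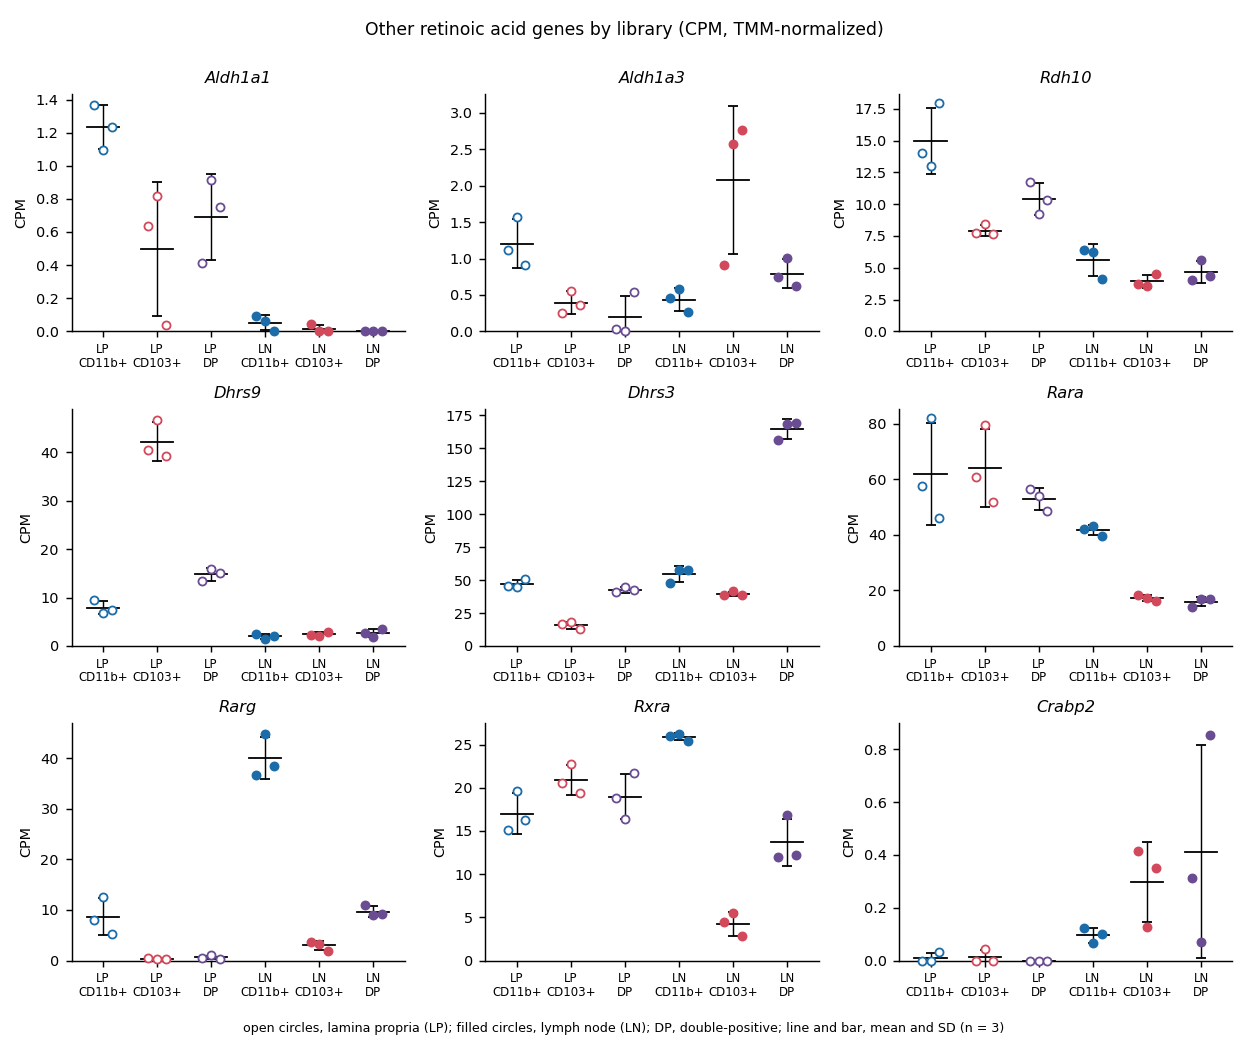
CPM of the other 9 genes in each library, with a linear axis from 0 for each gene, open circles for the LP, filled circles for the LN, and a line and bar for the mean and SD of 3 libraries. Dhrs9 stands out in LP CD103+ DCs (39.2 to 46.8 CPM), Dhrs3 in LN DP DCs (156 to 169 CPM) and Rarg in LN CD11b+ DCs (36.7 to 44.7 CPM). Rara is low in LN CD103+ and LN DP DCs, and Rxra is lowest in LN CD103+ DCs.

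Set beside the other genes of each receptor family per kb of exons, Rara led the RARs in the LP, with 81.3% of the summed RAR level in CD11b+, 89.4% in CD103+ and 86.7% in DP DCs. In the LN Rara made up 82.9% of the sum in CD103+ DCs and 55.9% in DP DCs, where Rarg made up 34.8%. In LN CD11b+ DCs Rara and Rarg were level, at 9.54 and 9.39 CPM per kb. The summed RAR level was 16.4 CPM per kb in LP CD103+ and 4.75 in LN CD103+ DCs. It was 14 and 6.53 in DP DCs and 17.5 and 19.4 in CD11b+ DCs, LP and LN in turn. Rarb, which encodes RAR beta and holds a DR5 in the promoter printed above, was low and fell in all 3 subsets, from 6.49 ± 1.27 to 2.33 ± 0.46 CPM in CD11b+, from 8.69 ± 0.402 to 0.578 ± 0.146 CPM in CD103+ and from 9.06 ± 2.42 to 3.18 ± 0.518 CPM in DP DCs (edgeR adjusted p = 0.00018, 2.7e-09 and 5.4e-05, SD, n = 3). Of the RXRs, Rxrb made up 73.6% to 96.6% of the sum per kb in every group and was called in no tissue comparison (94.7 to 115 CPM on average). Rxrg was nearly absent from the LP, with 3 reads over the CD11b+ and 2 over the DP libraries, and 17 over the CD103+ libraries, all in replicate 2. It reached 5.71 to 13.0 CPM in LN CD11b+ and 2.83 to 3.42 CPM in LN DP DCs. This is 257 times the LP CPM in CD11b+ (exact 95% counting interval 87.5 to 1248) and 127 times in DP DCs (34.8 to 1056). In CD103+ DCs no change was called (log2 fold change -0.07, edgeR adjusted p = 0.96).

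**Figure D3:**
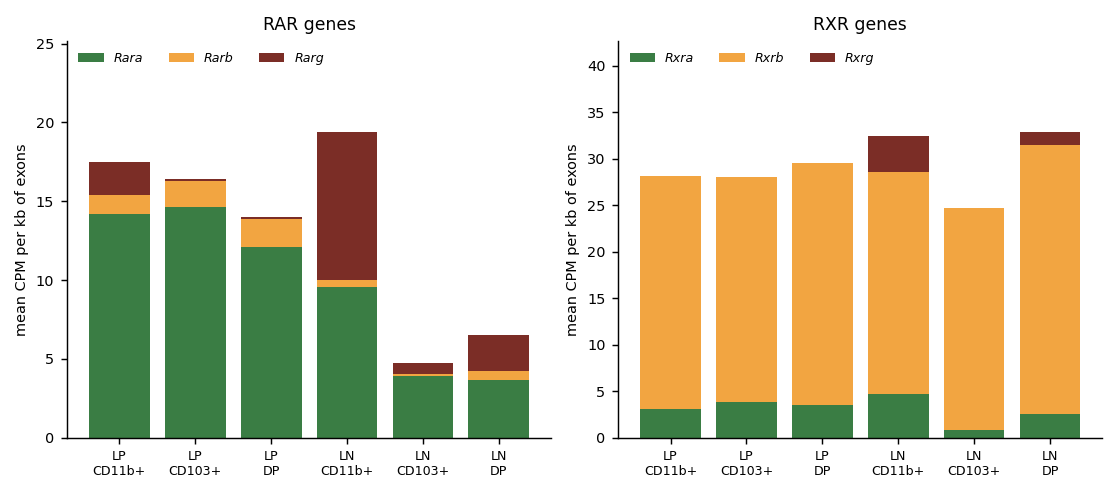
Mean CPM per kb of exons of the RAR genes (left) and RXR genes (right), stacked for each group of 3 libraries on an axis from 0. The RAR sum is 4.75 CPM per kb in LN CD103+ DCs against 16.4 in LP CD103+ DCs, Rarg is as large as Rara in LN CD11b+ DCs, and Rxrb is the largest RXR part in all 6 groups.

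Crabp2, the binding protein that hands retinoic acid to the RARs, was close to absent and was not tested. It had 1, 2 and 0 reads over the LP CD11b+, CD103+ and DP libraries and 9, 21 and 28 reads over those of the LN, where no library passed 0.855 CPM. All 9 LN libraries had at least 1 read, against 2 of the 9 LP libraries. The LN DP libraries held 0.313, 0.0698 and 0.855 CPM, so that replicate 3 carried 18 of the 28 reads. The LN held at least 10.5 times the LP CPM in DP DCs, and at least 5.18 times without LN DP replicate 3. It held 14.8 times in CD103+ DCs (exact 95% counting interval 3.61 to 130), where both LP reads came from 1 library, and 8.34 times in CD11b+ DCs (1.16 to 366). No replicate test stands behind these ratios.

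Counted together, 4 of the 9 tested genes were called between LN and LP in CD11b+ DCs, where 15.2% of all tested genes were. Of these 1 rose (Rarg, against 10.3% of all) and 3 fell (Aldh1a1, Rdh10, Dhrs9, against 4.89% of all). In CD103+ DCs 8 of 9 were called (34.9% of all), and 6 to 9 were with 1 library left out. Of the 8, 3 rose (Aldh1a2, Dhrs3, Rarg, against 19.8% of all) and 5 fell (Aldh1a1, Rdh10, Dhrs9, Rara, Rxra, against 15.1% of all). In DP DCs 7 of 9 were called (32.0% of all), of which 3 rose (Aldh1a2, Dhrs3, Rarg, against 18.6% of all) and 4 fell (Aldh1a1, Rdh10, Dhrs9, Rara, against 13.5% of all). The median log2 fold change of the 9 was -0.57 in CD11b+, -1.01 in CD103+ and -0.47 in DP DCs, against 0.03, 0.04 and 0.07 over all tested genes. The tissue effect differed between subsets for 5 of 9 (Aldh1a2, Dhrs9, Dhrs3, Rara, Rxra), where 31.9% of all tested genes did. With 1 library left out it differed for 5 to 7. The 10 genes were chosen as a pathway with earlier results of these data known, so these counts describe them.

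**Figure D4:**
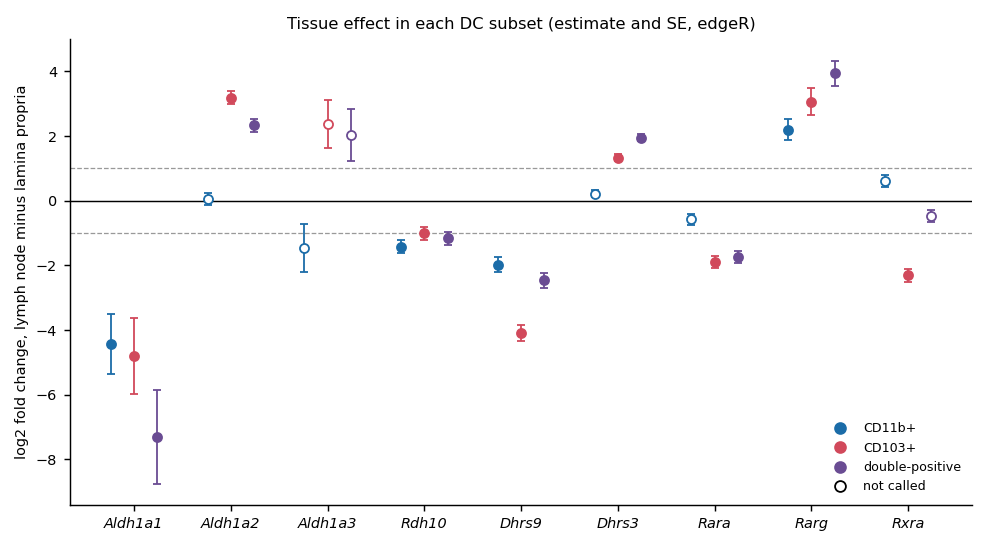
Log2 fold change of LN minus LP (edgeR estimate, bar for the SE) for the 9 tested genes in CD11b+, CD103+ and DP DCs, with filled symbols for calls, open symbols for values not called and dashed lines at the fold limit of 2. Aldh1a2 and Dhrs3 are raised in CD103+ and DP DCs and near 0 in CD11b+ DCs, Rarg is raised in all 3, and Rdh10 and Dhrs9 are lowered in all 3. The estimates for Aldh1a1 rest on 0 to 5 LN reads a group.

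Between subsets of the LP, CD103+ differed from CD11b+ DCs in 4 of 9 genes (15.8% of all tested genes). Aldh1a2 and Dhrs9 were higher (5.05% of all) and Dhrs3 and Rarg lower (10.7% of all). DP differed from CD11b+ DCs in 1 of 9 (4.82% of all), with 0 higher (1.14% of all) and Rarg lower (3.68% of all). DP differed from CD103+ DCs in 2 of 9 (13.6% of all), with Dhrs3 higher (8.1% of all) and Dhrs9 lower (5.52% of all). In the LN, CD103+ differed from CD11b+ DCs in 4 of 9 (25.8% of all), with Aldh1a2 higher (10.2% of all) and Rara, Rarg and Rxra lower (15.5% of all). DP differed from CD11b+ DCs in 4 of 9 (16.7% of all), with Aldh1a2 and Dhrs3 higher (6.92% of all) and Rara and Rarg lower (9.73% of all). DP differed from CD103+ DCs in 4 of 9 (6.45% of all), with Dhrs3, Rarg and Rxra higher (4.65% of all) and Aldh1a2 lower (1.8% of all). DP DCs thus lay between the single-positive groups of the LN in Aldh1a2, Rarg and Rxra, overlapped CD103+ DCs in Rara, and exceeded both in Dhrs3.

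The rest of the pathway was followed in 7 lists of 56 further genes, of which 42 passed the filter. Between LN and LP 5 were called higher and 7 lower in CD11b+, 12 and 9 in CD103+ and 11 and 7 in DP DCs. Over all tested genes 10.3% rose and 4.89% fell in CD11b+, 19.8% and 15.1% in CD103+ and 18.6% and 13.5% in DP DCs, and these shares are the background for each list below. The median log2 fold changes of the 42 were -0.11, 0.20 and 0.29, against 0.03, 0.04 and 0.07 over all tested genes. Among the 9 genes of retinol uptake, storage and binding 6 were tested, with 2 higher and 1 lower in CD11b+, 2 and 2 in CD103+ and 2 and 1 in DP DCs. Fabp5, which carries retinoic acid and fatty acids to other nuclear receptors, rose in all 3, from 29 ± 8.17 to 526 ± 90 CPM in CD11b+, from 3.66 ± 1.22 to 194 ± 32.7 CPM in CD103+ and from 19.2 ± 6.35 to 1070 ± 105 CPM in DP DCs (edgeR adjusted p = 8.6e-09, 8.7e-11 and 6.8e-11). Stra6, a receptor for retinol-binding protein, had 0 reads in LP CD103+ and DP DCs and was at least 109.6-fold higher in LN CD103+ and at least 299.5-fold higher in LN DP DCs (1.10 to 5.06 and 9.38 to 12.4 CPM). It also rose in CD11b+ DCs, from 0.0632 to 2.45 CPM on average (log2 fold change 5.09, edgeR adjusted p = 0.00031). The difference of the tissue effect between subsets was not called for Stra6 (F test, edgeR adjusted p = 0.033). Stra6l, its relative, was highest in DP DCs of both tissues (205 ± 16 CPM in the LP, 111 ± 15 in the LN) and fell in CD103+ DCs, from 21.6 ± 5.48 to 5.64 ± 0.655 CPM (edgeR adjusted p = 7.2e-07). Rbp2, a retinol-binding protein of enterocytes, fell from 2.56 ± 0.27 to 0.200 ± 0.101 CPM in CD103+ DCs and from 137 and 91 reads to 0 in CD11b+ and DP DCs. Of the 6 epithelial markers given above, 5 were called lower in the LN in CD11b+, 2 in CD103+ and 4 in DP DCs. Fabp2, among these, averaged 5.31 to 10.3 CPM in LP groups and at most 0.710 in LN groups. The mean of Rbp2 was highest in LP CD103+ DCs (against 1.53 CPM in LP CD11b+ and 1.09 CPM in LP DP DCs). The 6 markers summed lowest there among the LP groups. The part of epithelial RNA in the Rbp2 values was not tested. Among the 19 other oxidoreductases and carotenoid enzymes 11 were tested. In CD11b+ DCs 0 of them were called in either direction, in CD103+ DCs Retsat fell (10.8 ± 0.588 to 2.87 ± 0.419 CPM). In DP DCs Rdh5 rose from 0.753 to 2.30 CPM, Rdh12 fell from 4.24 to 1.94 CPM and Bco2 fell from 7.66 to 2.99 CPM on average, and none of these 3 calls held without each library. Rdh5 lost it without LP DP replicate 2 (edgeR adjusted p = 0.018) or LN DP replicate 3 (0.012), and Rdh12 without LP DP replicate 2 (0.014) or LN DP replicate 1 (0.016). Bco2 lost it without LP DP replicate 3 (0.016), LN DP replicate 2 (0.013) or LN DP replicate 3 (0.017). Adh5 (112 to 160 CPM on average) and Dhrs4 (27.6 to 50.8 CPM on average) passed 50 CPM in a group and were called in no tissue comparison.

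**Figure D5:**
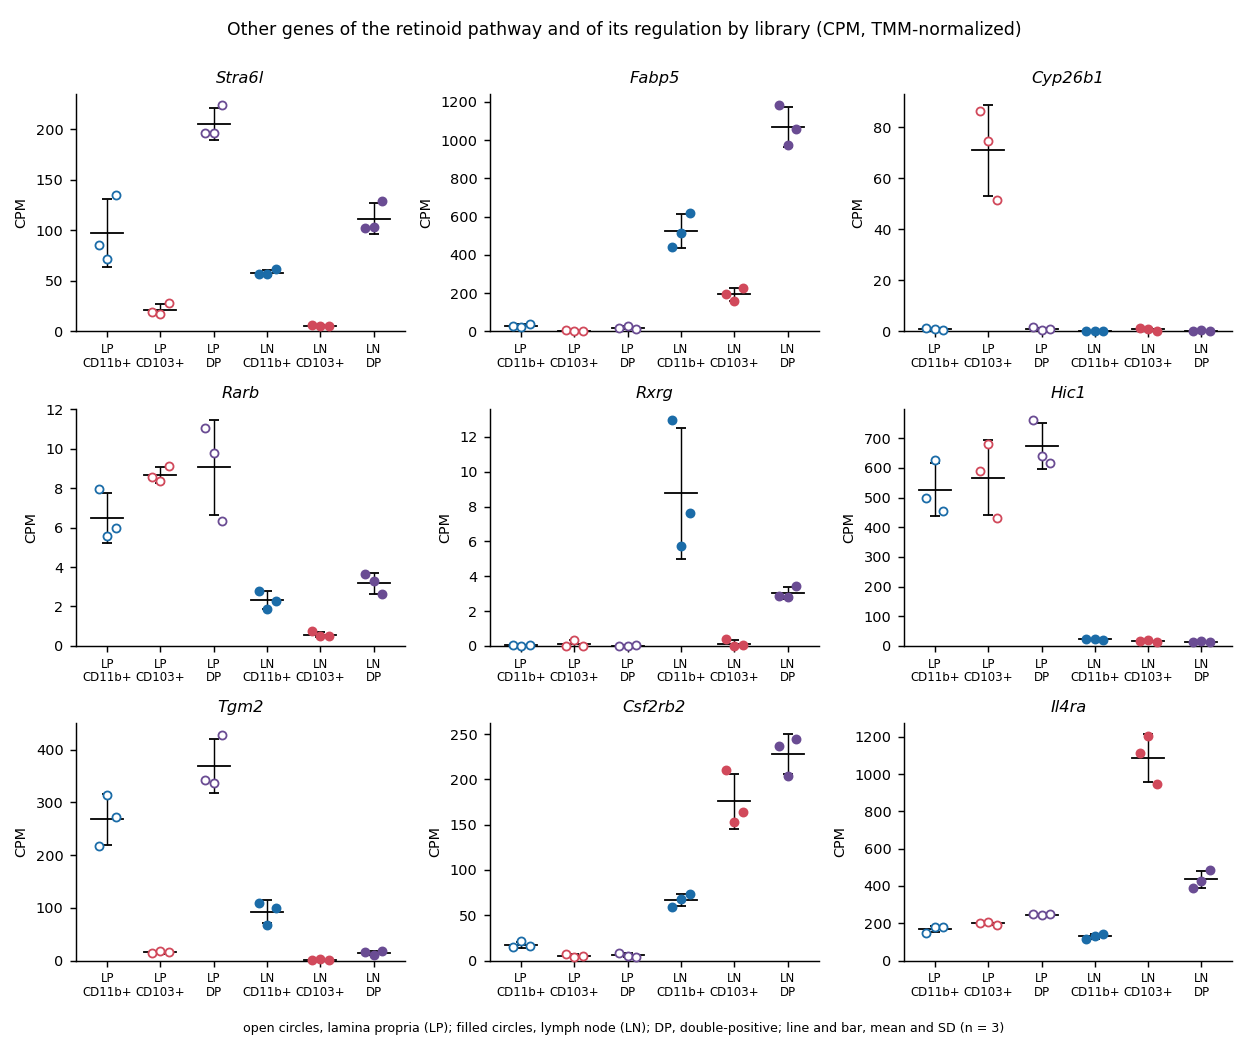
CPM in each library of 9 further genes of the retinoid pathway and of receptors that bear on it, on linear axes from 0, with open circles for the LP, filled circles for the LN, and a line and bar for the mean and SD of 3 libraries. Cyp26b1 is read in LP CD103+ DCs (51.6 to 86.4 CPM) and at no more than 1.56 CPM elsewhere, Hic1 is high in all LP groups (430 to 762 CPM) and low in all LN groups (13.0 to 24.2 CPM), and Fabp5 is the reverse.

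Among the 3 clearance enzymes only Cyp26b1 passed the filter. This enzyme, which breaks retinoic acid down, held 86.4, 74.7 and 51.6 CPM in LP CD103+ DCs and at most 1.56 CPM in any other library. It was 92.9-fold lower in LN than in LP CD103+ DCs (log2 fold change -6.54, SE 0.53, edgeR adjusted p = 1.1e-08), and lower in LN than in LP CD11b+ DCs as well (-3.72, 0.00071), while the DP difference was not called (-1.73, 0.017). Within the LP, CD103+ exceeded CD11b+ DCs by 6.30 on the log2 scale (edgeR adjusted p = 4.4e-08) and DP DCs 69.5-fold (edgeR adjusted p = 5.9e-08). Cyp26a1, with a DR5 in the promoter shown, had 14 reads over LN CD11b+ DCs and 0 in all other groups, and Cyp26c1 had 1 read in all. LP CD103+ DCs were thus the group with the highest Cyp26b1 and Dhrs9, and the lowest Dhrs3.

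Of 4 genes known to be induced by retinoic acid, all tested, 0 rose and 2 fell in CD11b+ DCs, and 1 rose and 2 fell in CD103+ and in DP DCs. Hic1, a transcriptional repressor, fell in all 3, from 527 ± 89.8 to 22.2 ± 2.04 CPM in CD11b+, from 567 ± 127 to 16.6 ± 3.29 CPM in CD103+ and from 673 ± 78.3 to 14.6 ± 0.793 CPM in DP DCs (edgeR adjusted p = 3.7e-11, 6.2e-13 and 6.8e-13). Tgm2, a transglutaminase, fell from 268 ± 49 to 92.2 ± 21.9, from 15.7 ± 2.44 to 1.75 ± 0.657 and from 370 ± 51.5 to 14.9 ± 4.13 CPM (edgeR adjusted p = 3.9e-05, 6.6e-08 and 1.4e-10). Cd38, an ectoenzyme, rose in CD103+ (log2 fold change 1.51, edgeR adjusted p = 1.5e-06) and in DP DCs (2.06, 4.3e-08). Cebpe is named after its values were seen, to complete this list. It was called in no tissue comparison and had 15 reads over LP and 0 over LN CD103+ DCs. LN CD103+ DCs, with the highest Aldh1a2, had the lowest mean of Tgm2 and of Cebpe among the 6 groups, but not of Hic1 or Cd38. They also had the lowest mean of Rarb, which is not of this list. Tgm2 was also lower in CD103+ DCs than in the other subsets within the LP. What signal these cells received was not measured.

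Receptors for signals that are known to raise or lower Aldh1a2 in DCs gave 1 rise and 1 fall of 7 in CD11b+, 5 rises and 1 fall in CD103+ and 4 rises and 0 falls in DP DCs, against the shares of all genes given above (19.8% higher and 15.1% lower in CD103+ DCs). The tissue effect differed between subsets for all 7, where it did for 31.9% of all tested genes. Il4ra, a chain of the interleukin 4 receptor, rose 5.44-fold in CD103+ DCs, from 200 ± 8.75 to 1088 ± 130 CPM (edgeR adjusted p = 4.3e-12), against log2 fold changes of 0.82 in DP and -0.39 in CD11b+ DCs, both under the fold limit. Its order in the LN (CD103+, DP, CD11b+) was that of Aldh1a2. Csf2rb, the shared beta chain of the GM-CSF receptor, rose in CD103+ (146 ± 17.7 to 1141 ± 69.6 CPM) and DP DCs (428 ± 29.8 to 1680 ± 212 CPM), and its close copy Csf2rb2 rose in all 3, by 5.08 in CD103+, 5.28 in DP and 1.97 in CD11b+ DCs on the log2 scale. Reads that fit both copies may have been lost or split, so these 2 levels are uncertain. The alpha chain Csf2ra fell in CD11b+ DCs (556 ± 61.5 to 247 ± 21.8 CPM), and Tlr2, a receptor for bacterial lipoproteins, rose in CD103+ DCs (log2 fold change 2.19, edgeR adjusted p = 4.2e-08) and was highest in LN CD11b+ DCs (57.0 CPM). Of the prostaglandin E2 receptors, Ptger4 rose in CD103+ (41.5 ± 3.55 to 303 ± 15.2 CPM) and DP DCs (125 ± 12.6 to 363 ± 49.5 CPM), while Ptger2 fell in CD103+ (22.9 ± 3.65 to 3.02 ± 0.0842 CPM) and rose in DP DCs (0.787 ± 0.301 to 3.46 ± 0.516 CPM).

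Partners of RXR and coregulators completed the lists. Of 8 partners and other receptors tested, 2 rose and 2 fell in each subset, beside 19.8% and 15.1% of all genes in CD103+, 18.6% and 13.5% in DP and 10.3% and 4.89% in CD11b+ DCs. Pparg, a fatty acid receptor, was highest in LP CD103+ DCs (14.5, 14.5 and 28.2 CPM) and fell there to 0.935 ± 0.0428 CPM in the LN (edgeR adjusted p = 8.6e-07). Nr1h3, which encodes the oxysterol receptor LXR alpha, rose in all 3 subsets and was highest in LN CD11b+ DCs (63.9 ± 10.9 CPM), and its rise in CD11b+ DCs (log2 fold change 1.57, edgeR adjusted p = 0.0049) was lost without LP CD11b+ replicate 1 (0.023) or 2 (0.022) or LN CD11b+ replicate 1 (0.017) or 3 (0.016). The other calls were falls of Rarb in all 3, rises of Rxrg in CD11b+ and DP DCs and a fall of the fatty acid receptor gene Ppard in DP DCs (3.03 ± 1.13 to 0.899 ± 0.242 CPM). Vdr, the vitamin D receptor, is named after its values were seen to complete this count. It fell in CD11b+ (8.27 ± 4.03 to 3.10 ± 0.311 CPM, edgeR adjusted p = 0.0098) and rose in CD103+ DCs (1.10 ± 0.302 to 5.91 ± 1.3 CPM). Of 5 coregulators, 0 rose in CD11b+, 2 in CD103+ and 1 in DP DCs and 0 fell. Ncoa2, a coactivator, rose in CD103+ (20.9 ± 0.0999 to 72.4 ± 4.78 CPM) and DP DCs (23.6 ± 0.191 to 93 ± 14 CPM). Nrip1, a corepressor, rose in CD103+ DCs (49.5 ± 5.94 to 157 ± 11.5 CPM). The corepressor Ncor1 (116 to 167 CPM on average), the coactivator Ncoa3 (87.4 to 173 CPM) and the LXR beta gene Nr1h2 (109 to 222 CPM) were abundant in every group and called in no tissue comparison.

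The genes whose pattern over the 18 libraries was most like that of each member were found by Pearson's r of log2(CPM + 1) among the 17074 tested genes, for the 7 members with a mean of 10 CPM or more in a group. The libraries share their group structure, so these values describe the pattern only. Aldh1a2 was followed most closely by Net1 (r = 0.988), Sh2d5 (0.983) and Tuba1c (0.982), each highest in LN CD103+ DCs (1348, 154 and 1058 CPM). For Rdh10 they were Prdx5 (0.961), Cavin2 (0.948) and Pf4 (0.942), and for Dhrs9 Mospd2 (0.980), Rab39 (0.974) and Actr3 (0.973). Dhrs3 was followed by Rcl1 (0.973), Asrgl1 (0.954) and Fbxo32 (0.952), and Rara by Eef2kmt (0.979), Rfc1 (0.977) and Prmt5 (0.977). For Rarg they were S100a4 (0.978), C3 (0.969) and Cd79b (0.969), the last of these a B cell marker of the list above (76.4 ± 12.2 CPM in LN CD11b+ DCs), and for Rxra Tmem64 (0.972), Prkcb (0.945) and Timm21 (0.943).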

How the data were processed

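The data were 18 RNA-seq libraries of sorted mouse DCs, 3 in each of 6 groups. The authors deposited raw read counts per gene, not normalized, for 54232 Ensembl genes. Libraries were made with the Smart-seq v4 kit and sequenced with a read length of 75 bp on a HiSeq4000, per the labels, and the submitters' processing notes name FastQC 0.11.7, STAR 2.6 and GRCm38. For its own DC libraries the study kept unique alignments and ignored strand when counting, which was not stated for these. Reads shared by near-identical genes may therefore be lost, and no exon of the 10 genes overlapped another gene. Symbols and positions came from GENCODE vM21 (54165 genes matched).

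Counts were tested with edgeR 4.0.16 in R 4.3.3 (TMM, filterByExpr with the 6 groups, robust quasi-likelihood fit with a mean per group), over 17074 genes, with Benjamini-Hochberg adjustment over all of them. The 9 comparisons were LN against LP in each subset and each pair of subsets in each tissue, called at an adjusted p under 0.01 and a fold change over 2, and an F test asked whether the tissue effect differed between subsets (adjusted p under 0.01). The fit was tested on simulated data. CPM used TMM library sizes, SEs were derived from the F statistic, and levels per kb used the union of a gene's exons. Total counts of 23574292 to 46901985 limit the precision of rare transcripts, for which the limit of a count of 0 was set at 3 reads. Replicates differed by more than sampling noise (chi-square per gene of 14.9 to 64.9 over genes with at least 50 reads in the pair), so all libraries were counted. Same-numbered LP libraries deviated together (correlations of 0.156 to 0.330 between subsets, all over 0.1), so the numbers may pair the LP libraries. Libraries of different numbers were not correlated, and what the same-numbered ones share is not given by the labels. The main fit did not use the numbers, so its comparisons of LP subsets are unpaired. In the LN (0.00354 to 0.266) some pairs passed 0.1 and others did not, so the numbers were not taken to pair the LN libraries. The highest LN value was that of replicate 3 of CD11b+ and DP DCs, the 2 libraries with both Xist and Ddx3y. Between tissues (-0.161 to 0.0779) no pair passed 0.1.

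All 10 genes were named whatever their values, and of the 56 listed genes the up to 3 called ones of largest change per list and tissue comparison and those over 50 CPM in a group. A few genes first listed are not reported here and were left out of the lists and their counts. The genes, lists and comparisons were chosen with earlier results of these data known. Tried in turn were the size factors of DESeq2, total counts, no filter, at least 100 counts in at least 3 libraries, DESeq2 1.42.0, only the libraries compared, the replicate number as a block over all groups or within each tissue, and each library left out. Leaving out the 2 LN libraries with both Xist and Ddx3y, and each LN DP library for Crabp2, was added after seeing the data.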

Additional observations from a re-analysis of the deposited data

Results flagged for a closer look

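The tissue effect, LN against LP, differed between the 3 subsets for 5 of the 9 tested genes (F test of the interaction in edgeR), against 31.9% of all tested genes. For Aldh1a2 (adjusted p = 2.3e-07) and Dhrs3 (adjusted p = 2.7e-07) the effect was a rise in CD103+ and DP DCs and near 0 in CD11b+ DCs. For Rxra (adjusted p = 9.4e-07) it was a fall in CD103+ DCs and a difference of the opposite sign, not called, in CD11b+ DCs. For Dhrs9 (adjusted p = 8.8e-05) it was a fall in all 3, largest in CD103+ DCs, and for Rara (adjusted p = 0.00046) a fall in CD103+ and DP DCs.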

How the results depend on the processing

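Over 2374 values of the 9 genes under the alternatives, 2329 kept their direction and their side of the threshold, 10 lost a call, 24 gained 1 and 11 changed sign, none of the 11 called in either fit. For the listed genes named, 1097 of 1113 values kept their call and 16 lost it, of Nr1h3, Rdh5, Rdh12 and Bco2. The number of genes called in DP against CD11b+ DCs of the LP, 1 of 9, was 2 in DESeq2 and 1 to 2 with 1 library left out, and over all tested genes it was 465 in place of 823 when only the libraries compared were fitted, which leaves fewer libraries to estimate the spread. With total counts, the log2 fold change of Rara between CD103+ and CD11b+ DCs of the LP was -0.023 (0.049 with TMM) and that of Dhrs9 between CD103+ and CD11b+ DCs of the LN -0.14 (0.29), while the median over all tested genes moved from -0.13 to -0.56 in the latter comparison, from 0.04 to -0.18 in CD103+ DCs between tissues and from 0.03 to 0.17 in CD11b+ DCs. With 1 library left out, Rara lay between -0.14 and 0.33 in CD103+ and between -0.40 and 0.035 in DP against CD11b+ DCs of the LP, Aldh1a1 between -0.10 and 1.00 in DP against CD103+ DCs of the LP, Aldh1a2 between -0.13 and 0.31 in CD11b+ DCs between tissues, and Dhrs9 between -0.079 and 0.34 in DP against CD103+ DCs of the LN. Without LN CD11b+ replicate 3 and LN DP replicate 3, those of Aldh1a2 and Dhrs9 were -0.13 and -0.079. The cause of these changes was not tested. With the replicate number as a block over all groups, the numbers called were those without it (4, 8 and 7 in the tissue comparisons). The block within each tissue was fitted only for the comparisons of subsets and for the difference of the tissue effect. No call of the 9 genes changed in the comparisons fitted with either block. Under the stricter filter Aldh1a1 and Aldh1a3 had no value. Depth limits Aldh1a1, Aldh1a3 and Crabp2 most.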
